A study of Mus musculus with 4 samples.

Results

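Open chromatin that the authors' tables tie to no gene was followed across mouse fibroblasts lacking either Rela or Kindlin-2. The regions described here are rows of the Rela table with a blank gene identifier that overlap a region of the Kindlin-2 table by at least 1 bp, outside the mitochondrial and Y chromosomes. Rows with 1 Rela column at 3 or less and the other at 35 or more were left out, which removed 28. This gave 1942 regions, which are 6.83% of the 28445 regions in the Rela table and 10.6% of its 18304 unassigned regions. Each has its own partner among the 5727 regions of the Kindlin-2 table, and 28 overlap 2 of them. Every partner with the longest overlap was also without a gene, although the rule did not ask for that. They are called shared unassigned regions below.

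The data come from ATAC-seq, in which the Tn5 transposase inserts sequencing adapters into open chromatin, with 50000 cells per library. The 4 genotypes were Rela K.O. and Rela wt in the 3T3 line, which was derived from mouse embryo fibroblasts, and Kindlin-2 K.O. and Kindlin-2 floxed fibroblasts from kidney, all at passages 15 to 20. The floxed cells carry loxP-flanked Kindlin-2 alleles, and how the deletions were made or whether a line is 1 clone is not stated in the labels. Each genotype has 1 value column although 2 biological replicates per genotype were made, so replicate spread is unknown and no p-value is given, and each interval is a 95% exact interval for counting error alone.

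Most open chromatin away from promoters marks enhancers, silencers, insulators bound by CTCF, or starts of transcripts missing from an annotation. In fibroblasts, distal open sites are widely bound by AP-1 factors and by TEAD proteins, the DNA-binding partners of YAP. Rela encodes p65, a DNA-binding subunit of NF-kB. Kindlin-2 is the product of Fermt2 and helps talin to activate integrins at focal adhesions.

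The values are normalized signal, corrected for background and scaled within each table by the authors, and levels of the 2 tables are not set against each other. Outside the mitochondrial and Y chromosomes, the Rela table sums to 1458609 in knockout and 1386832 in wt cells, and the Kindlin-2 table to 114138 in knockout and 134590 in floxed cells. The shared unassigned regions hold 11.4% of the Rela knockout and 11.7% of the Rela wt sum, and 34.0% of the Kindlin-2 knockout and 32.3% of the floxed sum. With the mitochondrial and Y chromosomes kept, the Kindlin-2 table sums to about 827408 in knockout and 1655320 in floxed cells. Most of its signal thus lies on those chromosomes, more so in floxed cells, while the Rela sums hardly change. How this bears on the Kindlin-2 ratios was not tested. The region at the Rela promoter had a signal of 27 in knockout and 21 in wt cells, and accessibility of a promoter does not show whether its protein is made. No value for Fermt2 is used here. Of 15 fibroblast marker genes, 7 had a promoter region in the Rela table, with summed signal of 493 in knockout and 453 in wt cells, and among them were Vim, Col1a2 and Pdgfrb. Of the epithelial markers 1 of 5 had one (Cdh16, 7 in knockout and 2 in wt cells), of the leukocyte markers 1 of 3 (Cd68, 12 in knockout and 14 in wt cells), and of the endothelial markers 0 of 3. The Kindlin-2 table held a promoter region for 0 of the 15 fibroblast, 0 of the 5 epithelial, 0 of the 3 leukocyte and 0 of the 3 endothelial genes, so its cell type could not be checked this way.

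Some shared unassigned regions lie at starts of genes in the RefSeq annotation, and 6 promoter sequences are printed because the results below return to them. They come from RefSeq on GRCm38.p6, the assembly of build mm10, and run 5′ to 3′ along the gene. The first 4 are stretches of 100 bases from the promoters with an AP-1 match before the start and the highest Rela-table signal, and their capitals mark the AP-1 motif TGANTCA, which reads alike on both strands. In Tank, capitals mark the GC box GGGCGG on either strand and an NF-kB motif, which overlap in 1 stretch. Tank also has an AP-1 match that begins at -6 from the start, runs past the printed end and is not marked. Igsf11 is shown because its region differed most between Rela genotypes among the named starts, and it holds none of the searched motifs.
Zfp869 (chr8:69716965-69717064, minus strand): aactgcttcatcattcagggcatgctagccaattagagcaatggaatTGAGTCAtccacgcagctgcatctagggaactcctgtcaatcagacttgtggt
A530046M15Rik (chr13:15806993-15807092, plus strand): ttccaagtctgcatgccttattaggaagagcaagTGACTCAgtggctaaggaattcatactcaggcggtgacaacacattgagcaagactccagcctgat
Fam107b (chr2:3713358-3713457, plus strand): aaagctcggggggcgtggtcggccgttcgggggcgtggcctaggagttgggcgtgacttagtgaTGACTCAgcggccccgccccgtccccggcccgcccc
Palld (chr8:61591141-61591240, minus strand): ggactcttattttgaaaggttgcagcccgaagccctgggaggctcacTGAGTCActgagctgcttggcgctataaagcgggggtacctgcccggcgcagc
Tank (chr2:61592847-61593096, plus strand): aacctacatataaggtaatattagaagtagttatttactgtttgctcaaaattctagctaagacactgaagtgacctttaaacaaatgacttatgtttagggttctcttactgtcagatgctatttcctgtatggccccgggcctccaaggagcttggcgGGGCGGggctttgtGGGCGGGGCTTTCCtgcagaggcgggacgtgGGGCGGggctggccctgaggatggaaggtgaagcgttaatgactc
Igsf11 (chr16:38902095-38902344, plus strand): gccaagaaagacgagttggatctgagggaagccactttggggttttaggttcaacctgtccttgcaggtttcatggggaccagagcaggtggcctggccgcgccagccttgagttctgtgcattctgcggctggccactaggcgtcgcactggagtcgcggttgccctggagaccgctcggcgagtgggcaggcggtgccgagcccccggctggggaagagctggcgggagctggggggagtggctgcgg

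The overlap between the tables was close in position. The median overlap was 233 bp and the smallest 3 bp, and in 1693 pairs (87.2%) the Kindlin-2 region lay wholly inside the Rela region. The Rela regions had a median width of 497 bp (194 to 12468 bp), against 361 bp for the 16334 unassigned regions without a Kindlin-2 partner and 641.5 bp for the 2614 shared regions with a gene. Their Kindlin-2 partners had a median width of 237 bp. Seen from the Kindlin-2 table, 70.3% of its unassigned regions outside the mitochondrial and Y chromosomes overlap a shared unassigned region.

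The shared unassigned regions were stronger than other unassigned regions. Their median signal was 68 in Rela knockout and 69 in wt cells, against 28 in knockout and 27 in wt cells for other unassigned regions, and 90 in knockout and 89 in wt cells for shared regions with a gene. The quartiles were 38 and 112 in knockout cells, and 38 and 114 in wt cells. The median rested on about 71.7 implied counts in Rela knockout and 101 in wt cells. In the Kindlin-2 table the median signal was 16 in knockout and 16 in floxed cells. The floxed median rested on about 11.8 implied counts. No scale factor fitted the knockout column, so its 16.0 implied counts assume a factor of 1. Signal is summed over a region, and across the 1942 regions the mean level and the width in the Rela table correlated with r = 0.73.

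**Figure D1:**
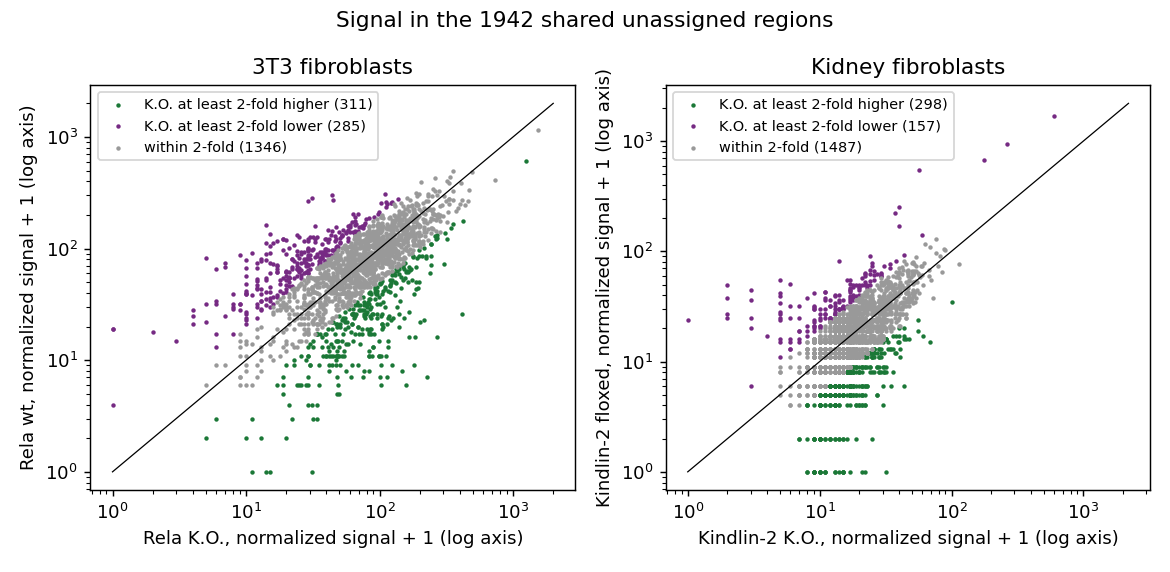
Normalized signal + 1 in knockout cells (horizontal, log axis) against control cells (vertical, log axis) for each of the 1942 regions, with Rela on the left and Kindlin-2 on the right; the line marks equal signal. In the Rela panel 311 regions are higher and 285 lower by 2-fold or more, and in the Kindlin-2 panel 298 are higher and 157 lower.

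By position, 813 regions (41.9%) lie in a protein-coding gene, 199 (10.2%) in another gene, 806 (41.5%) between genes and 124 (6.39%) within 1000 bp of a gene start. RefSeq gene bodies were used without exons, so introns and exons are not separated. Other unassigned regions have a smaller share near a start, with 47.4% in a protein-coding gene, 7.93% in another gene, 41.9% between genes and 2.79% near a start. Shared regions with a gene lie near a start in 71.3% of cases. The median distance to the nearest start was 29312 bp over the 1851 regions off chromosome 18, whose starts were not measured, against 35740 bp for other unassigned regions and 173 bp for shared regions with a gene. Of the 124 near a start, 78 are at protein-coding genes and 46 at long non-coding RNA genes. A further 3 regions overlap tRNA genes, n-TSgct5, n-TIaat17 and n-TEttc7.

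The first comparison asked how loss of Rela relates to accessibility at these regions. The typical region had the same signal in both genotypes, and the regions past 2-fold were divided between the directions. The median log2 ratio, computed as log2((knockout + 1)/(control + 1)), was 0.014, with quartiles of −0.62 and 0.64. At least 2-fold higher in the knockout were 311 regions (16.0%), beside 22.4% of all regions in the table. At least 2-fold lower were 285 (14.7%), beside 21.0% of all regions. Both shares are below the table's background. The rule itself removes the most lopsided weak rows, and with them kept the shares were 16.9% higher and 14.8% lower. Fewer cells with an open region and a less open region in each cell cannot be told apart in these pooled samples.

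The share past 2-fold followed signal level. In the weakest of 4 level groups, with a mean signal up to 43, 25.6% were higher and 22.1% lower in the Rela knockout, and in the strongest group, above 109, 8.87% were higher and 6.60% lower. At the same level the shared unassigned regions lay between the other classes on the higher side. There, 16.9% of other unassigned regions and 4.98% of shared regions with a gene were higher. On the lower side that group held 6.12% of other unassigned regions and 2.54% of shared regions with a gene. When the counting interval had to lie wholly beyond 2-fold, 165 regions (8.50%) were higher, beside 12.9% of the table, and 115 (5.92%) were lower, beside 8.72%. The table's shares keep rows at 3 or less against 35 or more, which the rule removes here, so the sets are not filtered alike. At 2-fold, without such rows, 20.6% of the table was higher and 20.7% lower. The interval shares were not recomputed that way.

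**Figure D2:**
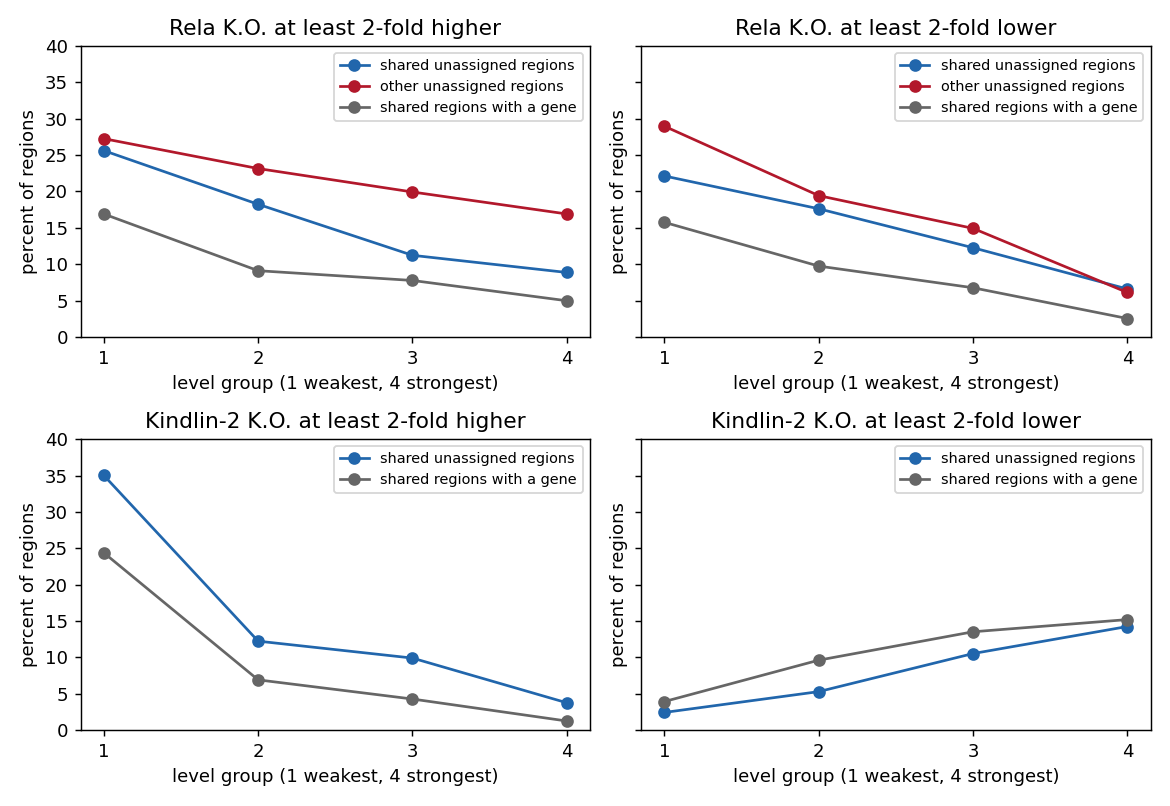
Percent of regions at least 2-fold higher (left) or lower (right) in the knockout, for Rela (top) and Kindlin-2 (bottom), in 4 groups of mean signal cut at the quartiles of the shared unassigned regions. In Rela both directions decline with level; in Kindlin-2 the share higher falls to 3.77% in group 4, against 35% in group 1, while the share lower is 14.3% in group 4 and 2.44% in group 1.

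Among regions at or above the median level, those with the highest Rela ratios were open in knockout cells and near closed in wt cells. A region between genes on chromosome 8 (chr8:9204356-9204880) had a signal of 225 in knockout and 6 in wt cells, a 37.5-fold difference (19.0 to 81.0). One on chromosome 3 (chr3:14948029-14948594) had 157 in knockout and 5 in wt cells, and one on chromosome 5 (chr5:53102039-53102692) had 180 in knockout and 8 in wt cells. The other two of the top set lie inside genes on chromosome 8. The region in Elavl1, whose product HuR binds and stabilises mRNAs, had 146 in knockout and 7 in wt cells (20.9-fold, 11.3 to 45.5), and the one in Zfhx3, a homeobox transcription factor gene, had 270 in knockout and 15 in wt cells (18-fold, 11.7 to 29.2). None of these 5 regions was more than 2-fold different in the Kindlin-2 pair, where the chromosome 5 region had exactly 2.0-fold more signal in knockout cells (22, against 11 in floxed cells) but a log2 ratio of 0.94 with the pseudocount.

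Among regions at or above the median level, the 5 lowest Rela ratios were smaller in size than the 5 highest taken the same way. A region between genes on chromosome 13 (chr13:67572534-67573002) had 13 in knockout and 160 in wt cells, 12.3-fold lower (7.03 to 22.3). On chromosome 2 (chr2:109406439-109407107) the values were 28 in knockout and 266 in wt cells. On chromosome 10 (chr10:128980641-128981526) they were 30 in knockout and 281 in wt cells, and the same place was higher in Kindlin-2 knockout cells, with 100 against 34 in floxed cells (2.94-fold, 1.88 to 4.76). A region in Chmp4c, which encodes a subunit of the membrane-remodelling ESCRT-III complex, had 14 in Rela knockout and 135 in wt cells. The last, on chromosome 6 (chr6:106876607-106877484), had 43 in knockout and 300 in wt cells, and was lower in Kindlin-2 knockout cells as well (33, against 69 in floxed cells).

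The second comparison asked the same of Kindlin-2. The median log2 ratio was 0.044, and 1487 regions (76.6%) stayed within 2-fold. At least 2-fold higher in the knockout were 298 (15.3%), beside 16.2% of the Kindlin-2 table, and at least 2-fold lower were 157 (8.08%), beside 9.27%. Both shares are near the background. The interval excluded equal signal with more in the knockout at 161 regions and with less at 169. The matching shares of the whole Kindlin-2 table were not computed, so these counts have no background beside them. With the interval wholly beyond 2-fold, 18 regions (0.927%) were higher, beside 1.07% of the table, and 32 (1.65%) were lower, beside 1.52%.

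Direction in the Kindlin-2 pair moved with signal. In the weakest group, with a mean up to 11, 35% were higher and 2.44% lower in the knockout, with a median log2 ratio of 0.58. In the strongest group, above 24.5, 3.77% were higher and 14.3% lower, with a median of −0.24. Across the 1942 regions the mean level and the log2 ratio correlated with r = −0.42 in Kindlin-2 and −0.03 in Rela, where the ratio shares its values with the level. The floxed column was at 0 in 25 regions and the knockout column in 1. The part of depth and scaling in this trend was not tested.

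The highest Kindlin-2 ratios above the median level included a region between genes on chromosome 3 (chr3:75499342-75500191), with 43 in knockout and 5 in floxed cells (8.6-fold, 2.87 to 30.3). In Mbnl1, which encodes the splicing regulator muscleblind-like 1, the values were 34 in knockout and 5 in floxed cells (6.8-fold, 2.23 to 24.2). On chromosome 12 (chr12:98282741-98283906) they were 68 in knockout and 14 in floxed cells (4.86-fold, 2.56 to 10.9), and on chromosome 16 (chr16:49288965-49289561) 35 in knockout and 7 in floxed cells. On chromosome 1 (chr1:81755778-81756075) they were 29 in knockout and 5 in floxed cells, and this was the one of the 5 also past 2-fold in the Rela pair, where it was lower (9, against 22 in wt cells).

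The lowest Kindlin-2 ratios at or above the median level were regions almost without signal in the knockout. In Cdh18, a cadherin gene, the signal was 1 in knockout and 48 in floxed cells, an interval of 8.01 to 1935-fold. In Hecw2, which encodes a ubiquitin ligase, it was 1 in knockout and 37 in floxed cells. In Khdrbs3, which encodes an RNA-binding protein, it was 2 in knockout and 44 in floxed cells. The remaining regions, on chromosome 10 (chr10:102659663-102661394) and chromosome 5 (chr5:80683409-80684347), had 2 in knockout and 35 in floxed cells, and 4 in knockout and 54 in floxed cells. All 5 were higher in Rela knockout than in wt cells, by 1.63-fold to 2.02-fold. Across all 1942 regions the log2 ratios of the Rela and Kindlin-2 pairs correlated with only r = 0.007, and the median Rela log2 ratio was 0.014.

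A few regions carried very strong floxed signal. Of the 1942, 6 had a floxed value of at least 200, a limit chosen after the values were seen. Choosing on the floxed value favours a lower knockout value, so their direction is a description only. The strongest of the 1942 by Rela signal, on chromosome 11 (chr11:3101006-3104757), had 598 in Kindlin-2 knockout and 1690 in floxed cells, beside 1538 in Rela knockout and 1144 in wt cells. The widest, 12468 bp on chromosome 16 (chr16:3231592-3244060), had 261 in Kindlin-2 knockout and 941 in floxed cells, beside 1244 in Rela knockout and 603 in wt cells. On chromosome 4 (chr4:3061869-3069989) the values were 174 in Kindlin-2 knockout and 671 in floxed cells, beside 736 in Rela knockout and 414 in wt cells. As deposited these 3 had Kindlin-2 log2 ratios of −1.50, −1.85 and −1.94, and after a loess trend on level was subtracted 0.039, −0.50 and −0.75, all within 2-fold. These 3 start within the first 3500000 bases of their chromosomes. In all, 14 regions do, and they hold 3.16% of the summed signal of the shared unassigned regions in Kindlin-2 knockout and 8.12% in floxed cells, beside 2.61% in Rela knockout and 1.70% in wt cells.

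The other three with strong floxed signal lie elsewhere. One near the end of chromosome 9 (chr9:124256238-124257986) had 56 in Kindlin-2 knockout and 551 in floxed cells, 9.84-fold lower (7.43 to 13.3). A pair on chromosome 17 (chr17:13305897-13306263 and chr17:13591077-13591522) had 39 in knockout and 253 in floxed cells, and 36 in knockout and 222 in floxed cells. In the Rela pair these 3 stayed within 2-fold.

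Per kilobase, the order of the strongest regions differs. The median region had 126 per kb in Rela knockout and 123 in wt cells. The chromosome 11 region had 410 per kb in knockout and 305.0 in wt cells, while the wide chromosome 16 region had 99.8 in knockout and 48.4 in wt cells, below the median. Among the 8 strongest, the highest per kb in knockout cells was a region in a pseudogene on chromosome X (chrX:75673750-75674647), with 523 per kb in knockout and 376 in wt cells. The highest in wt cells was a region on chromosome 17 (chr17:17837702-17838549) inside Spaca6 and Has1, the second of which encodes a hyaluronan synthase, with 394 per kb in knockout and 517 in wt cells. The rest of the 8 had 90.6 to 162 per kb in knockout and 51.0 to 173 in wt cells. They include regions in Pmepa1, a TGF-beta target gene whose product restrains SMAD signalling, and in Schip1, and one at the start of the long non-coding RNA gene 4930526I15Rik.

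The knockouts were then set side by side. Past 2-fold in both, 87 (4.48% of the regions) went the same way and 81 (4.17%) opposite ways. Joint calls were not counted for shared regions with a gene, so these shares have no background beside them. Of the 87, 68 were higher in both knockouts and 19 lower in both. Of the 81, 54 were lower in the Rela and higher in the Kindlin-2 knockout, and 27 the reverse. Of the regions higher in the Kindlin-2 knockout, 22.8% were also higher in the Rela knockout, beside 16.0% of all 1942, and 18.1% were lower, beside 14.7%. The tables share no sample, and across the 1942 regions the log2 ratios correlated with Pearson's r = 0.007 and a Spearman coefficient of 0.010, given as a description because neighbouring regions are not independent. Past 2-fold in Rela alone were 428 regions, in Kindlin-2 alone 287, and in neither 1059 (54.5%).

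**Figure D3:**
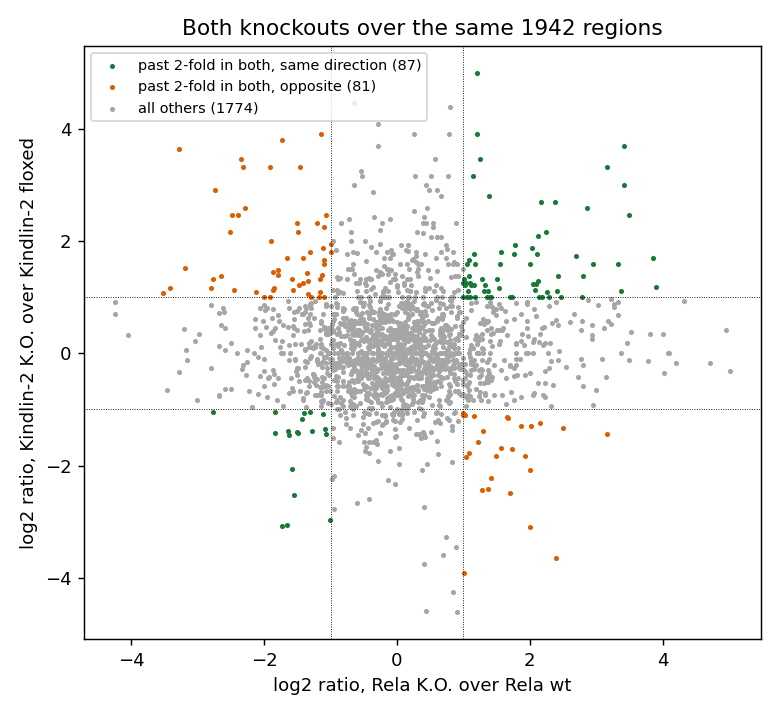
Log2 ratio in the Rela knockout (horizontal) against the log2 ratio in the Kindlin-2 knockout (vertical) for each of the 1942 regions; dotted lines mark 2-fold. The points form no diagonal, with 87 regions past 2-fold in both in the same direction and 81 in opposite directions.

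Counting intervals lay wholly beyond 2-fold in both comparisons at 10 regions, 3 in the same direction and 7 in opposite directions. By the same limit, 8.50% of the 1942 regions were higher and 5.92% lower in Rela. In Kindlin-2, 0.927% were higher and 1.65% lower. Whether 10 exceeds what these separate shares would give together was not tested. The 3 in the same direction are in Kcnq5, a potassium channel gene, in Nek11, a kinase gene, and between genes on chromosome 10 (chr10:126267336-126267989). The Kcnq5 region had 31 in Rela knockout and 2 in wt cells, and 12 in Kindlin-2 knockout and 0 in floxed cells, at least 2.94-fold higher against a floor of 3 counts per library (interval from 2.04). Its Kindlin-2 log2 ratio was 3.70 as deposited, and 0.87 after loess, which is within 2-fold. The Nek11 region was lower in both, with 30 in Rela knockout and 97 in wt cells, and 2 in Kindlin-2 knockout and 24 in floxed cells. The chromosome 10 region was lower in both too, with 46 in Rela knockout and 155 in wt cells, and 4 in Kindlin-2 knockout and 41 in floxed cells.

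The 7 in opposite directions divide by which knockout was higher. Higher in the Rela and lower in the Kindlin-2 knockout were regions in Arhgap10, in Zfat, a zinc finger gene, in the non-coding gene Gm31594, and on chromosome 11 (chr11:54139947-54140704). The Arhgap10 region had 221 in Rela knockout and 85 in wt cells, and 5 in Kindlin-2 knockout and 31 in floxed cells. The chromosome 11 region had 95 in Rela knockout and 23 in wt cells, and 39 in Kindlin-2 knockout and 169 in floxed cells. Lower in the Rela and higher in the Kindlin-2 knockout were regions in Patj, which encodes a cell polarity scaffold, in Itprid2, and on chromosome 13 (chr13:12808736-12809085). The Patj region had 6 in Rela knockout and 67 in wt cells, and 24 in Kindlin-2 knockout and 1 in floxed cells.

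The same-direction regions with the largest summed ratios were all higher in both knockouts and mostly weak, and each of the 3 given here lost a 2-fold call under an alternative. A region on chromosome 16 (chr16:62610911-62611233) had 31 in Kindlin-2 knockout and 0 in floxed cells, at least 7.59-fold higher against the floor (interval from 5.81), and 22 in Rela knockout and 9 in wt cells (2.44-fold, with a log2 ratio of 0.95 at a pseudocount of 5). In Mfhas1 the values were 14 in Kindlin-2 knockout and 0 in floxed cells, and 119 in Rela knockout and 51 in wt cells (Rela log2 ratio 1.21, and 0.60 with chromosomes centred). In the non-coding gene Gm39380 they were 100 in Rela knockout and 6 in wt cells, and 12 in Kindlin-2 knockout and 3 in floxed cells (Kindlin-2 log2 ratio 1.70, and 0.70 after loess). The Rela limit of the rule passes through such weak regions. Just inside it are regions with 33 in knockout and 3 in wt cells and with 33 in knockout and 2 in wt cells, and just outside are rows with 36 in knockout and 0 in wt cells and with 37 in knockout and 3 in wt cells.

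Median ratios differed between chromosomes and largely followed those of the rest of each table, with wider gaps on some chromosomes. In Rela, the median log2 ratio of the shared unassigned regions was 0.59 on chromosome 8, where 44 of 133 were at least 2-fold higher and 8 lower. It was −0.62 on chromosome 13, where 36 of 111 were lower and 12 higher, −0.57 on chromosome 10 and −0.51 on chromosome 17. The other regions of the table had medians of 0.61, −0.80, −0.58 and −0.57 on these 4 chromosomes. On chromosome 3 the gap was wider, with 0.26 in the shared unassigned and 0.56 in the other regions. Over the 20 chromosomes the medians of the shared unassigned and of the other regions correlated with Pearson's r = 0.96 and a Spearman coefficient of 0.98, and both come from the same libraries. Of the 5 highest Rela ratios, 3 lie on chromosome 8.

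In Kindlin-2 the pattern fell on other chromosomes. On chromosome 12 the median was 0.54, with 27 of 97 regions higher and 1 lower, and on chromosome 16 it was 0.30, with 24 of 92 higher and 1 lower. On chromosome 9 the median was −0.60 over 29 regions and on chromosome 7 −0.47 over 36. The other regions of that table had medians of 0.57, 0.22, −0.37 and −0.13 on chromosomes 12, 16, 9 and 7. The correlation with the other regions of that table was Pearson's r = 0.84, with a Spearman coefficient of 0.88. With each chromosome centred on its own median, 278 regions were higher and 245 lower in Rela, and 273 higher and 140 lower in Kindlin-2. The cause of these chromosome-wide differences was not tested.

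**Figure D4:**
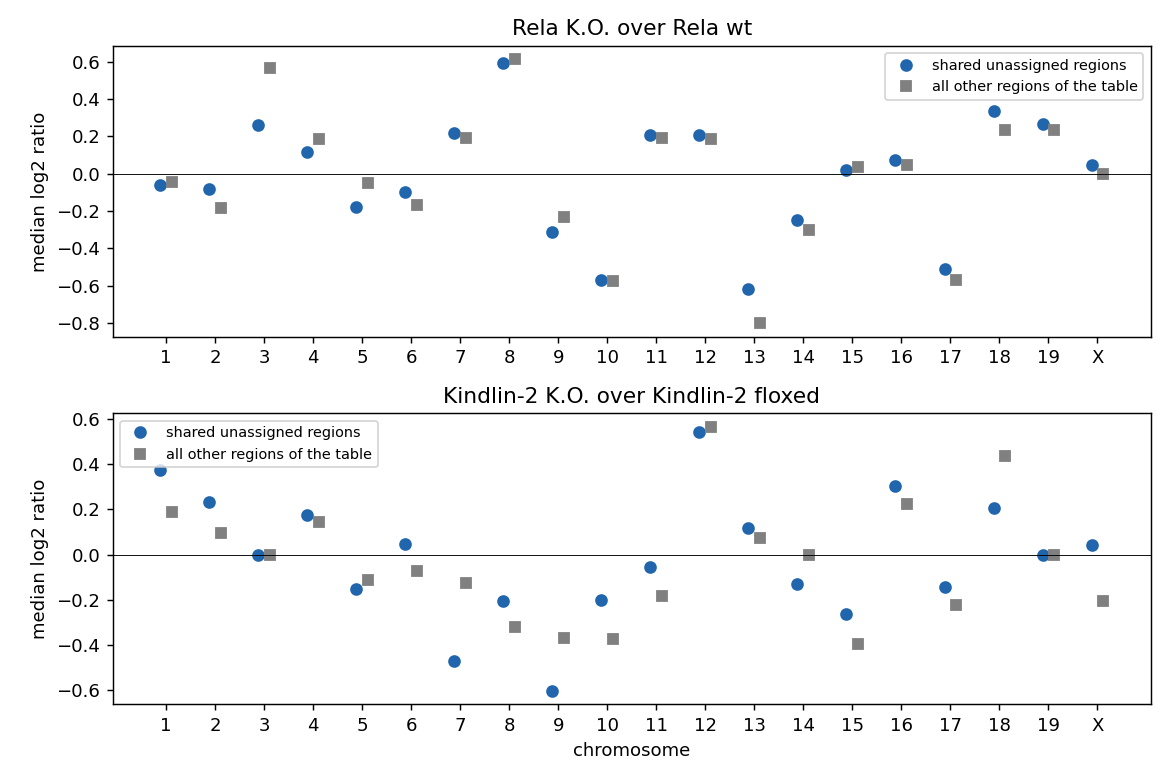
Median log2 ratio by chromosome for the shared unassigned regions (circles) and all other regions of the same table (squares), for Rela (top) and Kindlin-2 (bottom). In Rela the circles largely follow the squares, with 0.59 on chromosome 8 as the highest and −0.62 on chromosome 13 as the lowest. In Kindlin-2 the highest circle is chromosome 12 at 0.54 and the lowest chromosome 9 at −0.60.

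Membership itself was uneven. On chromosome 1, 14.7% of the unassigned Rela regions were shared, against 7.0% on chromosome 7, 3.16% on chromosome X and 3.10% on chromosome 9. Chromosome 9 holds 5.40% of the Rela table and 1.59% of the Kindlin-2 table.

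Near gene starts a smaller share of regions passed 2-fold in the Rela pair than between genes, where 16.9% were higher and 17.5% lower. Of the 124, 11 were at least 2-fold higher and 14 lower in the Rela knockout (8.87% and 11.3%), and 8 were higher and 15 lower in the Kindlin-2 knockout (6.45% and 12.1%). In Kindlin-2, 16.9% of the regions between genes were higher and 8.44% lower, so the lower share near starts was the larger one there. Their median signal was 87.5 in Rela knockout and 85.5 in wt cells. The nearest start of all was that of Igsf11, which encodes an immunoglobulin-family adhesion molecule, 3 bp from the region's centre. Its region had 55 in Rela knockout and 7 in wt cells (7.86-fold, 4.08 to 17.7), and 12 in Kindlin-2 knockout and 4 in floxed cells (3.0-fold, 0.793 to 16.2). Phldb2, which encodes LL5-beta, an anchor of microtubules near focal adhesions, had 94 in Rela knockout and 41 in wt cells, and 23 in Kindlin-2 knockout and 7 in floxed cells. Both were past 2-fold higher in both knockouts as deposited. The Kindlin-2 log2 ratio at Igsf11 was 1.38, and 0.92 with a pseudocount of 5 and 0.59 after loess.

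The remaining starts nearest to a region's centre were mostly within 2-fold in the Rela pair. Tank, which encodes a regulator of NF-kB signalling, had 44 in Rela knockout and 51 in wt cells, and 18 in Kindlin-2 knockout and 8 in floxed cells. At Ccnd3, a cyclin D gene, the region had 73 in Rela knockout and 71 in wt cells, and 8 in Kindlin-2 knockout and 14 in floxed cells. Pde4dip, which encodes the centrosome and Golgi protein myomegalin, had 173 in Rela knockout and 91 in wt cells, and 16 in Kindlin-2 knockout and 38 in floxed cells. At Zfp869, a zinc finger gene, the values were 411 in Rela knockout and 272 in wt cells, and 43 in Kindlin-2 knockout and 91 in floxed cells. A130010J15Rik had 45 in Rela knockout and 91 in wt cells but 30 in Kindlin-2 knockout and 7 in floxed cells. At Ccdc77 both pairs stayed within 2-fold.

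Among the other starts past 2-fold, chosen after their values were seen, Atf3 encodes a stress-induced transcription factor of the bZIP family. Its region had 145 in Rela knockout and 55 in wt cells (2.64-fold, lower limit 1.99), and 46 in Kindlin-2 knockout and 59 in floxed cells. Pde4b, which encodes a cAMP phosphodiesterase, had 103 in Rela knockout and 38 in wt cells. Cdca7l, whose product binds MYC, was higher in both, with 142 in Rela knockout and 33 in wt cells, and 32 in Kindlin-2 knockout and 14 in floxed cells. Pnkd had 84 in Rela knockout and 18 in wt cells, and 7 in Kindlin-2 knockout and 18 in floxed cells. Zbtb6, a zinc finger transcription factor gene, had 24 in Rela knockout and 61 in wt cells. Lower in the Kindlin-2 knockout were regions at Stag1, a cohesin subunit gene (13, against 39 in floxed cells, 3.0-fold, 1.53 to 6.36), and at Psat1, which encodes an enzyme of serine synthesis (23, against 49 in floxed cells).

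Several of these starts belong to genes with another start elsewhere. Of the 78 protein-coding genes, 45 have a further start in the RefSeq promoter table, and for 13 such a start lies in a Rela region that the authors did assign to a gene. The calpain inhibitor gene Cast has 3 other starts, of which 2 lie in assigned regions. Its shared unassigned region had 122 in Rela knockout and 137 in wt cells. The assigned region at the other start 38024 bp away had 105 in knockout and 176 in wt cells. At Rcan1, a calcineurin regulator gene, the unassigned region had 33 in Rela knockout and 66 in wt cells, and the assigned region had 30 in knockout and 40 in wt cells at the other start, 66091 bp away. At Tcaf1 the unassigned region had 225 in Rela knockout and 220 in wt cells, while the assigned one had 86 in knockout and 12 in wt cells. At Sesn1, a stress-response gene, the unassigned region had 23 in Rela knockout and 33 in wt cells, and the assigned one 55 in knockout and 126 in wt cells.

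The promoters in these regions differ in sequence from those of gene-assigned shared regions. A RefSeq promoter window, 250 bases before to 50 after a start, overlapped a shared unassigned region in 101 cases, with a median GC content of 60.0% and a ratio of observed to expected CpG of 0.651. The 1816 windows in shared regions with a gene had 63.7% and 0.819, the 329 windows in other unassigned regions 53.7% and 0.409, and all 32851 windows 52.7% and 0.384. The AP-1 motif TGANTCA was found in 24 of the 101 windows (23.8%), in 17.9% of windows in other unassigned regions, in 5.40% of those in shared regions with a gene and in 7.81% of all windows. The GC box GGGCGG on either strand was in 51.5%, against 39.5%, 75.2% and 35.7% in the same order. The TEAD motif GGAATG was in 12.9% of the 101, and in 18.2%, 11.5% and 14.7% of the other sets. The NF-kB motif on either strand was in 2 of the 101, and in 3.34%, 1.87% and 1.63% of the other sets. A match is a string of letters, not evidence of binding.

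**Figure D5:**
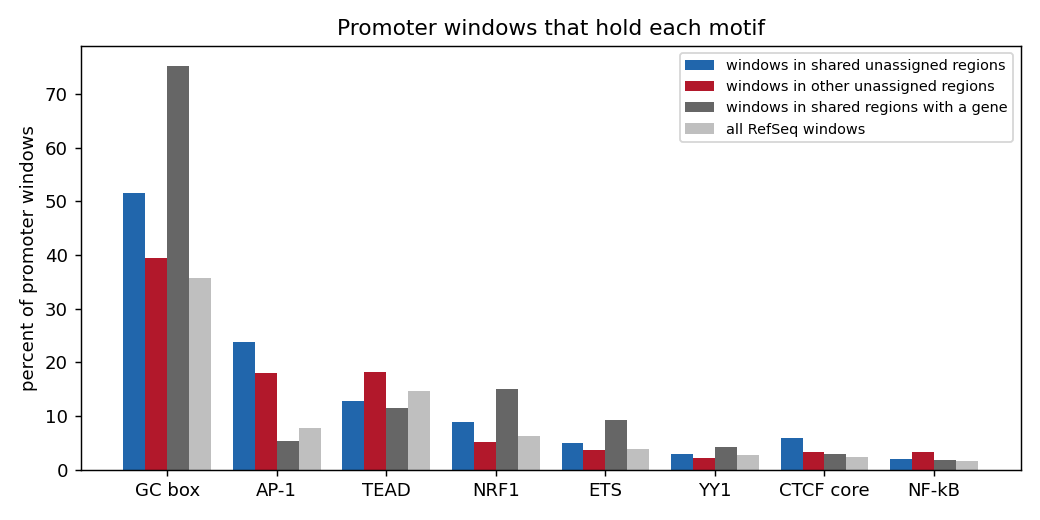
Percent of RefSeq promoter windows of 300 bases that hold each motif on either strand, in 101 windows overlapping shared unassigned regions, 329 in other unassigned regions, 1816 in shared regions with a gene and all 32851. AP-1 stands at 23.8%, 17.9%, 5.40% and 7.81% across these sets, and the GC box at 51.5%, 39.5%, 75.2% and 35.7%.

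The 24 windows with an AP-1 match comprise 12 protein-coding and 12 long non-coding RNA starts. Of their regions 1 was at least 2-fold higher and 2 lower in the Rela knockout, and 1 was higher and 2 lower in the Kindlin-2 knockout. Of the 100 other regions near a start, 10 were higher and 12 lower in the Rela knockout. These include regions that do not overlap the promoter window of their nearest start, so they are not a set without the motif. Over all 124 near a start, 8 were higher and 15 lower in the Kindlin-2 knockout. In the sequences printed above the match begins at -115 from the start in Zfp869, -54 in Palld, -36 in Fam107b and -216 in A530046M15Rik. Palld encodes palladin, an organiser of actin filaments, and its region had 196 in Rela knockout and 113 in wt cells. Fam107b had 177 in Rela knockout and 177 in wt cells. A530046M15Rik, a non-coding gene with 3 matches, had 124 in Rela knockout and 253 in wt cells, and 45 in each Kindlin-2 genotype. Other windows of this set belong to Mme, which encodes the fibroblast-expressed protease neprilysin, Ptpre, Sgms1 and Rcan1.

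Away from starts, 884 genes hold at least 1 shared unassigned region and 28 hold 3 or more. Dlgap1, a postsynaptic scaffold gene on chromosome 17, holds 5, of which 1 was at least 2-fold lower in the Rela knockout (25, against 93 in wt cells) and none past 2-fold in Kindlin-2. In Lama2, which encodes the laminin alpha-2 chain of basement membranes, all 3 were weaker in the Rela knockout, with 22, 11 and 36 against 54, 29 and 55 in wt cells. They lie on chromosome 10, whose other regions had a median log2 ratio of −0.58. In Rapgef2, which encodes an activator of Rap GTPases, 2 of 3 were higher in the Rela knockout, with 106 and 92 against 41 and 34 in wt cells, and the third had 32 in knockout and 46 in wt cells. They lie on chromosome 3, whose other regions had a median log2 ratio of 0.56. Sybu, whose product links cargo to kinesin, had regions on both sides, with 85 and 47 in knockout against 38 and 10 in wt cells, and 1 more with 19 in knockout and 56 in wt cells.

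Among the other genes that hold 3 or more, Tns3, which encodes the focal adhesion protein tensin-3, has 4, of which 1 was lower in the Rela knockout (33, against 84 in wt cells). In Ltbp1, which encodes a matrix protein that stores latent TGF-beta, all 3 were within 2-fold in both pairs. Dlc1 and Dst, which encodes the cytoskeletal linker dystonin, likewise had all 3 within 2-fold in both by log2 ratio. Without the pseudocount, a Dst region was exactly 2.0-fold lower in the Rela knockout (21, against 42 in wt cells). A Dlc1 region was exactly 2.0-fold higher in the Kindlin-2 knockout (22, against 11 in floxed cells). In Cubn, which encodes the endocytic receptor cubilin, 2 of 4 were higher in the Kindlin-2 knockout (16 and 14, against 5 and 1 in floxed cells). In Eps8, which encodes an actin-capping adaptor, 2 of 3 were higher in the Kindlin-2 knockout (10 and 31, against 0 and 15 in floxed cells). Plcb4, Sorcs2 and Ttll5 each had 2 of 3 higher in that knockout as well. Over all 1942 regions 15.3% were higher in the Kindlin-2 knockout, and in the weakest level group 35%. The counting intervals were wide. In Plcb4, 1 excluded equal signal (37, against 11 in floxed cells, 1.56 to 8.45). The other did not (15, against 7 in floxed cells, 0.762 to 7.75). Ttll5 lies on chromosome 12, whose other regions had a median Kindlin-2 log2 ratio of 0.57.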

How the data were processed

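ATAC-seq libraries of 4 mouse fibroblast genotypes were read from the authors' 2 deposited tables. Each holds 1 column per genotype of a score, which is background-corrected signal normalized by the DESeq method and rounded, per the labels' name for each table. How replicates were merged is not stated. Per the submitters' processing notes, the build was mm10 and the tools were STAR 2.4.2a, MACS2, DESeq2, bedtools, deepTools, Picard 1.136, Trimmomatic 0.33 and FastQC. Their roles, the Tn5 shift and duplicate handling are not stated there. The tables do not say whether region starts count from 0 or 1, and they are printed as deposited.

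Overlaps and log2 ratios (pseudocount 1, mean of at least 1) were computed with Python 3.11, pandas and NumPy and checked against bedtools and on simulated data. A member with several Kindlin-2 partners took the longest overlap. Calls are at 2-fold. With 1 value per genotype no test was possible. Counts were implied from the spacing of whole values, with factors of 0.949 (Rela K.O.), 0.683 (Rela wt) and 1.361 (Kindlin-2 floxed), which explained 91.3%, 97.8% and 95.9% of the deviance. No factor explained more than 12.3% for Kindlin-2 K.O., which was given 1, so its depth is uncertain. Intervals are exact (Clopper-Pearson, 95%) and cover counting error only. Zeros have a floor of 3 counts per library.

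Positions and promoter windows come from RefSeq on GRCm38.p6. Of 6839 protein-coding genes with the same symbol, 99.9% overlapped in position with the tables' annotation. The RefSeq promoter table holds 0 windows on chromosome 18. Named regions are the 5 highest and 5 lowest ratios in each pair at or above the median level, the 8 strongest, up to 8 in the same and 4 in opposite directions, 2 on each side of the rule's limit and the 8 nearest to a start. Others were chosen after their values were seen. The members, lists and rules were chosen with earlier results of these data known.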

Additional observations from a re-analysis of the deposited data

How the results depend on the processing

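No paired analysis was possible because each genotype has 1 column and no replicate numbers, and no replicate could be left out. The planned motif search in whole regions was not run, since no genome was used here, and promoter windows replaced it after the files were seen. The Kindlin-2 counts depended most on the settings. Regions higher in the Kindlin-2 knockout numbered 298, and 176 with a pseudocount of 5, 174 after a loess trend on level was subtracted, 136 at 3-fold, 160 with a mean of at least 10, and 18 with the counting interval beyond 2-fold. Lower were 157, with 51 at 3-fold and 32 by interval. So the higher share of calls was 65.5%, 55.9% after loess, 51.8% with a mean of at least 10 and 36.0% by interval, and the median of 0.044 became −0.078 with a mean of at least 10. In Rela, 311 higher became 158 at 3-fold and 165 by interval, and 285 lower became 117 and 115. Regions past 2-fold in both in the same direction numbered 87, and 41 with a pseudocount of 5, 57 after loess, 21 at 3-fold, 3 by interval and 48 with a mean of at least 10. Opposite ones numbered 81, and 49 with a pseudocount of 5, 54 after loess, 18 at 3-fold, 7 by interval and 53 with a mean of at least 10. These settings use stricter limits or fewer regions by construction, while the cause of the loess shift was not tested.

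Of 98 log2 ratios of named regions, 64 were past 2-fold, and 21 of these came within 2-fold under at least 1 of 5 alternatives. The direction turned in 2, both in Kindlin-2 after loess: the strongest region on chromosome 11 (0.039, against −1.50 as deposited) and a region on chromosome 5 (chr5:101250478-101251074, −0.48, against 3.0). Requiring an overlap of 50% of the shorter region gave 1929 members, and keeping the rows past the limit 1970. Counts implied at the median Kindlin-2 region are about 16.0 in knockout cells, under the assumed factor of 1, and 11.8 in floxed cells. Such low counts give wide intervals.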
